A study of Mus musculus with 16 samples.

Results

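Lung group 2 innate lymphoid cells (ILC2s) taken 2 weeks after IL-33 were compared with ILC2s of untreated lungs. The comparison used 5 of the 16 arrays of the series: 3 of week 2 lung ILC2s and 2 of naive lung ILC2s, chosen by their labels. All cells came from C57BL/6J mice, and every array held total RNA of isolated ILC2s. The week 2 mice had received the cytokine IL-33 intranasally, with the time counted from the first treatment, and the naive mice had received none. The sources used here do not give the dose, the number of doses, the ages of the mice, the sort markers or whether animals were pooled. The other 11 arrays held lung ILC2s of day 4 (n = 3) and 4 months (n = 2) after IL-33, and ILC2s from the lung-draining mediastinal lymph node (mLN) of day 4 (n = 3) and week 2 (n = 3). They entered the same model, so that all groups shared 1 estimate of the spread, and the lung groups are given where they place a week 2 value in time. Replicates were labelled as biological, but nothing says that they came from separate mice, so p-values measure only the spread between these samples.

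ILC2s are lymphocytes of barrier tissues that carry no rearranged antigen receptor. They respond to IL-33, IL-25 and other cytokines released by damaged or stimulated epithelium and stroma, and they answer with IL-5 and IL-13, which recruit eosinophils and drive mucus production. IL-33 signals through its receptor to NF-kB and MAP kinases, and activated ILC2s also display TNF family ligands through which they can costimulate T cells. The design addresses what remains of this activation at week 2.

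Levels are log2 signals after RMA (robust multi-array averaging), so 1 unit is a 2-fold difference in signal, and levels of different genes are not comparable. Of 22180 genes, 2134 (9.62%) passed limma's test at an adjusted p under 0.05: 1498 (6.75%) were higher and 636 (2.87%) lower at week 2. The naive arrays stood apart in quality. Their interquartile ranges were 2.58 and 2.62 log2 units against 2.92 to 2.94 at week 2, and they correlated with each other at r = 0.937 over the genes, against at least 0.984 between week 2 arrays. A narrower range lifts dim genes and lowers bright ones in the naive group. Genes were split into 10 bins of equal size by their level on the 6 mLN arrays, which are not part of the comparison. Those arrays also held ILC2s after IL-33, so the bins are not independent of the response to it. The parts of signal range and of that response in the trend over the bins were not tested separately. The median week 2 minus naive difference ran from -0.27 in the dimmest bin to 0.40 in the brightest. Quantile normalization repeated on the gene values brought these medians to -0.04 and 0.11 and the number of calls to 1077 (4.86%; 644 higher, 2.9%, and 433 lower, 1.95%), while centring the array medians gave 1808 higher and 447 lower. With limma's array weights, which gave each naive array 0.439 and the week 2 arrays 1.52 to 1.81, 728 genes (3.28%) were called, 572 higher (2.58%) and 156 lower (0.703%). Both together left 185 (0.834%). Genes called in all 4 fits (equal weights, array weights, quantile normalization, and quantile normalization with array weights) numbered 181 (0.816%), 119 higher and 62 lower. These are called "in all 4 fits" below, while "rose" and "fell" alone refer to the fit with equal weights. The 2 groups did not overlap for 9398 genes (42.4%), so the absence of overlap says little by itself.

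**Figure D1:**
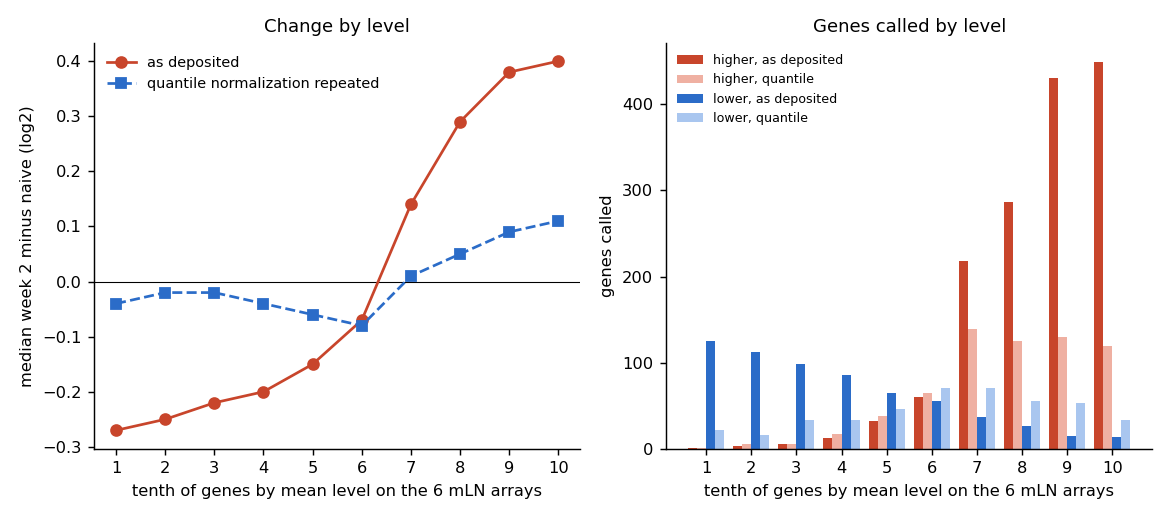
Left, median week 2 minus naive difference (log2) of genes in each of 10 bins of level on the 6 mLN arrays, as deposited (circles) and after quantile normalization was repeated (squares); right, the number of genes called higher and lower in each bin. As deposited, the medians run from -0.27 to 0.40, with 1 higher and 125 lower calls in the dimmest bin and 449 higher and 14 lower in the brightest.

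Cytokine and TNF superfamily ligand genes held the 2 largest rises with a call in all 4 fits. Il6, which encodes a cytokine of acute inflammation and of B and T cell help, measured 3.39 and 3.22 in naive lung, against 6.53, 6.64 and 7.10 at week 2. Every week 2 array was far above both naive arrays. The difference was 3.45 ± 0.35 (SE, limma adjusted p = 4.19e-05). Tnfsf8 encodes CD30 ligand and stood at 4.33 and 5.04 in naive lung against 8.03, 8.26 and 8.08 at week 2. The groups were again well apart, and the difference was 3.44 ± 0.24 (adjusted p = 9.45e-07). Tnfsf18, which encodes the ligand of the costimulatory receptor GITR, stood at 3.88 and 4.62 against 7.03, 6.51 and 7.29, a rise of 2.69 ± 0.36 (adjusted p = 3.78e-04). Tnfsf4 encodes OX40 ligand, a costimulator of T helper cells, and stood at 2.96 and 4.59 against 5.67, 5.93 and 5.99. Its naive arrays differed from each other by more than the week 2 arrays did, and it rose by 2.09 ± 0.40 (adjusted p = 0.00427). Il6, Tnfsf8, Tnfsf18 and Tnfsf4 were called in all 4 fits. Tnfsf10, which encodes the death ligand TRAIL, rose by 1.02 ± 0.20 and was called in all fits but quantile normalization with array weights. Of 12 measured TNF superfamily ligands 4 rose (Tnfsf8, Tnfsf18, Tnfsf4 and Tnfsf10) and 0 fell, beside 6.75% and 2.87% over all genes. The median of the 12 was 0.35 beside -0.04 for all genes. The remaining 8, among them the ligands of CD27 and Fas, ranged from -0.70 to 0.41.

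The list of 24 cytokines and growth factors had 5 members that rose and 1 that fell (3 and 1 with array weights), with a median of 0.30. Over all genes 6.75% rose and 2.87% fell (2.58% and 0.703% with array weights). Csf2, which encodes GM-CSF, stood at 7.82 and 7.93 in naive lung and at 9.11, 9.19 and 8.82 at week 2. It rose by 1.17 ± 0.22 (adjusted p = 0.00369), a call lost among the 4 fits only after quantile normalization with array weights. Il2, which encodes the growth factor of T cells and ILC2s, stood at 6.95 and 6.36 against 7.99, 8.21 and 7.76 and rose by 1.33 ± 0.27 (adjusted p = 0.00569). That call was lost after quantile normalization (adjusted p = 0.0524) and without naive replicate 2 (adjusted p = 0.0509). Tnf stood at 8.86 and 10.04 against 10.86, 10.94 and 10.60 and rose by 1.35 ± 0.36 (adjusted p = 0.0252). Without the lower naive array the change was 0.76 (adjusted p = 0.243). The call was also lost with array weights (adjusted p = 0.0974), after quantile normalization (0.0791) and without week 2 replicate 1 or 2 (0.07 and 0.0768). Il5, the eosinophil growth factor, stood at 7.86 and 7.23 against 8.45, 8.78 and 8.34. Its rise of 0.97 ± 0.22 (adjusted p = 0.0112) was lost with array weights, after quantile normalization, without naive replicate 2 (0.66) and without week 2 replicate 2 (0.84). Il13, the main effector cytokine of ILC2s, stood at 10.71 and 10.06 against 11.01, 11.26 and 10.71 and did not pass (0.61 ± 0.24, adjusted p = 0.124). Nor did Il4 (0.04 ± 0.20) or Il9 (-0.22 ± 0.34). The cytokine that fell was Ifng, the signature cytokine of type 1 responses, at -1.02, a gene named after its value was seen.

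**Figure D2:**
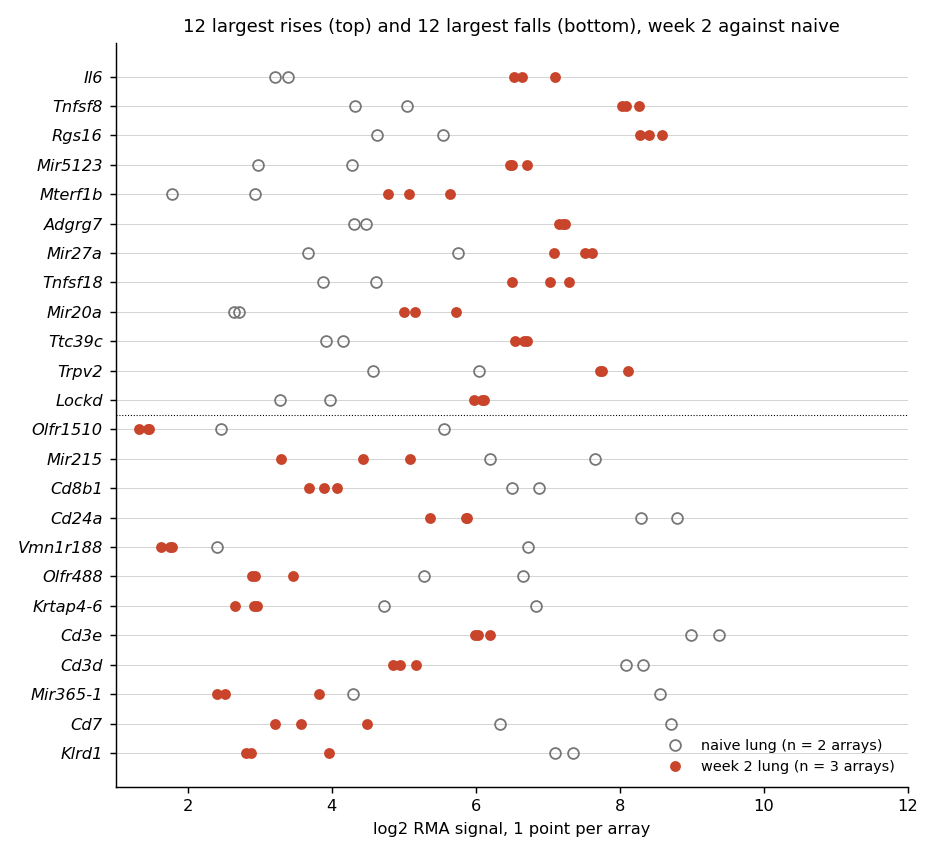
Log2 RMA signal of the 12 genes with the largest rises and the 12 with the largest falls at week 2, 1 point per array (naive lung, open, n = 2; week 2 lung, filled, n = 3). They were taken from genes called with equal and with array weights, predicted genes left out. The groups do not overlap for any gene shown, a condition for being shown, while Vmn1r188, Olfr1510 and Mir365-1 are high on only 1 of the 2 naive arrays.

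Promoters are shown for 4 of the cytokine and TNF superfamily ligand genes that rose, those with the largest rises among the genes in the sequence table, so that the start regions of these genes can be compared. They run from 250 bases before the annotated start to 50 after it, in RefSeq's mouse assembly GRCm38.p6, and capitals mark the motifs found.
Il6, chr5:30012864-30013163, plus strand: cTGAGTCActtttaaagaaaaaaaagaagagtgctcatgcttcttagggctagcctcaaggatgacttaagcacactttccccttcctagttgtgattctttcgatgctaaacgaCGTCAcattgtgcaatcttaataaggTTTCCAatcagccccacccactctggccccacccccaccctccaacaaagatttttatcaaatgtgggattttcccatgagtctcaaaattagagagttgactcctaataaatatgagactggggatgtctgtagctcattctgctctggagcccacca
Tnfsf8, chr4:63861235-63861534, minus strand: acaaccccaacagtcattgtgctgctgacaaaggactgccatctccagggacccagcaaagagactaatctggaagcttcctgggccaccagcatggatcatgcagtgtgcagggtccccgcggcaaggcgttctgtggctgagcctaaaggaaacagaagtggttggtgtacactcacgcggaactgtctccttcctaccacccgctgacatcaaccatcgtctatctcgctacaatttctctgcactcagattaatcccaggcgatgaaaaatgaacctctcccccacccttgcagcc
Tnfsf18, chr1:161494407-161494706, plus strand: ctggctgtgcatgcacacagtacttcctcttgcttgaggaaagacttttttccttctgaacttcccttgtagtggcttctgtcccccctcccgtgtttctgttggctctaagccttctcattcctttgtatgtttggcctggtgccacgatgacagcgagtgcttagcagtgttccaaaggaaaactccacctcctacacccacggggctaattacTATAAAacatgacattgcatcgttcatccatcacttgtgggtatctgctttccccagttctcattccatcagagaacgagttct
Tnf, chr17:35201958-35202257, minus strand: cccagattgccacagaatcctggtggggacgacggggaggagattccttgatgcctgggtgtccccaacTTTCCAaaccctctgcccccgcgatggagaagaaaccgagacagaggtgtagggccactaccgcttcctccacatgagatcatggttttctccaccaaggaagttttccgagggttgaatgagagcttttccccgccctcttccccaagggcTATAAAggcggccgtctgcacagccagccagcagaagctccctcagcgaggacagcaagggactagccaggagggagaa
Both strands were searched for 5 motifs. They were TGANTCA for AP-1, TGACG for the core of the CRE or cyclic AMP response element, AGATAA for factors of the Gata family, TATAAA for the TATA box and TGGAAA for NFAT. The Il6 window held an AP-1 match at position -249, a CRE core match at -135 and an NFAT match at -109, counted from the start to the first base of the match. The Tnfsf18 window held a TATA box match at -34. The Tnf window held one at -29 and an NFAT match at -181. The Tnfsf8 window held none of the 5, which says only that these letters are not in it. No matches overlapped. Among 20611 promoter windows of the genes tested, 7.26% held the AP-1 motif, 24.2% the CRE core, 9.66% the motif of the Gata family, 12.3% the TATA box and 19.7% the NFAT motif, so such matches are common and are given as a description of the sequence.

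Cytokine receptors moved in both directions. Of 33 measured, 5 rose and 5 fell (4 and 3 with array weights), beside 6.75% and 2.87% over all genes. The median of the 33 was 0.01, or -0.14 after quantile normalization. Il17rb, the IL-25 receptor subunit, stood at 7.91 and 7.51 in naive lung and at 9.60, 9.61 and 9.64 at week 2. Its rise was 1.91 ± 0.18 (adjusted p = 1.76e-05) and the week 2 arrays were almost identical. Il18r1, which encodes the IL-18 receptor chain, stood at 7.62 and 6.36 against 8.56, 8.44 and 8.66 and rose by 1.56 ± 0.25 (adjusted p = 0.00142). Il1r2, a decoy receptor that binds IL-1 without signalling, stood at 3.36 and 3.16 against 5.72, 5.31 and 5.74 and rose by 2.33 ± 0.35 (adjusted p = 9.65e-04). Il21r, Il23r and Il6st were among the receptors that fell. Il21r, the IL-21 receptor, stood at 6.47 and 6.48 against 4.69, 4.43 and 4.37 and fell by 1.98 ± 0.28 (adjusted p = 6.36e-04). Il23r, the IL-23 receptor used by ILC3s, stood at 4.68 and 4.10 against 2.75, 2.87 and 2.94 and fell by 1.54 ± 0.22 (adjusted p = 6.13e-04). Of 8 ILC3 markers measured, 1 fell (Il23r) and 1 rose (Nrp1, by 1.69 ± 0.19), beside 9.62% called over all genes, with a median of -0.40. Il6st, the signalling subunit shared by receptors of the IL-6 family, fell by 1.43, a gene named after its value was seen. Il17rb, Il18r1, Il1r2, Il21r, Il23r and Il6st were called in all 4 fits. The receptors that define ILC2s for growth and survival did not pass: Il7r differed by 0.52 ± 0.17 (adjusted p = 0.0624), Il2ra by -0.38 ± 0.20 and Kit by 0.48 ± 0.22.

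Among 16 receptors for the TNF family and B7-CD28 costimulation genes 2 were called, beside 9.62% over all genes, and 5 had an unadjusted p under 0.05. Icosl, the ligand of ICOS, rose by 0.76 ± 0.23 and Cd27 fell by 1.08 ± 0.26, both calls lost with array weights. The call of Icosl was also lost without naive replicate 1 (0.40) or any of the week 2 arrays, and that of Cd27 without naive replicate 1 (-0.95) or week 2 replicate 1 or 2. Of 15 inhibitory receptors and ligands, 0 passed limma's test with equal weights, 5 had an unadjusted p under 0.05 and 1 fell after quantile normalization. Pdcd1, which encodes PD-1, differed by 0.61 ± 0.32 (adjusted p = 0.238).

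Genes of homing, tissue residency and egress changed in 10 of 29 cases, beside 9.62% called over all genes. Of the 29, 7 rose and 3 fell (5 and 1 with array weights), with a median of 0.01, or -0.05 after quantile normalization. Itgae encodes the αE integrin (CD103), which binds E-cadherin on epithelium, and stood at 6.19 and 4.63 in naive lung against 7.48, 7.39 and 7.66 at week 2. It rose by 2.10 ± 0.34 (adjusted p = 0.00141). S1pr1 encodes the sphingosine-1-phosphate receptor with which lymphocytes leave tissue, and stood at 7.60 and 7.34 against 5.77, 5.61 and 5.79. It fell by 1.75 ± 0.22 (adjusted p = 2.32e-04). Both were called in all 4 fits, and in neither did the groups overlap. Itgav, the αV integrin, rose by 1.28 ± 0.24, the chemokine receptor Ccr4 by 1.12 ± 0.17 and Cxcr6, the receptor of CXCL16, by 0.99 ± 0.16. These 3 calls were lost only after quantile normalization with array weights, among the 4 fits. Klf2, the transcription factor that drives S1pr1, stood at 7.08 and 7.25 against 6.58, 6.68 and 6.37 and did not pass (-0.63 ± 0.24, adjusted p = 0.108), but it fell after quantile normalization (-0.92, adjusted p = 0.0317). Cd69, which holds S1PR1 inside the cell, differed by 0.26 ± 0.32. Of 14 chemokines 2 fell and 0 rose, beside 9.62% called over all genes. Ccl5, a chemokine of T and NK cells, fell by 1.64 ± 0.22 (adjusted p = 4.02e-04, all 4 fits). Ccl4, an inflammatory chemokine, fell by 1.55 ± 0.39, a call lost with array weights and without naive replicate 1 (-0.88).

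Of 32 lymphoid transcription factors measured, 3 rose and 1 fell, beside 9.62% called over all genes (2 and 1 with array weights), with a median of 0.12, or -0.07 after quantile normalization. Lef1, a factor of the Wnt pathway used by early lymphocytes and resting T cells, stood at 7.70 and 7.84 in naive lung and at 6.15, 6.41 and 6.30 at week 2, and fell by 1.49 ± 0.24 (adjusted p = 0.00158, all 4 fits). Irf4, which is induced by antigen receptor and NF-kB signals in lymphocytes, stood at 5.39 and 4.65 against 6.27, 6.26 and 6.11. It rose by 1.19 ± 0.28 (adjusted p = 0.0134), a call lost after quantile normalization (adjusted p = 0.0545) and without naive replicate 2 (0.82). Stat5b, which relays IL-2 and IL-7 signals, rose by 0.84 ± 0.17, and Tox, needed for ILC development, by 0.72 ± 0.19. Both calls were lost after quantile normalization, and that of Tox with array weights too. The factors that define ILC2s did not pass. Gata3 differed by 0.29 ± 0.22, Rora by 0.32 ± 0.20, Id2 by 0.00 ± 0.19 and Bcl11b by -0.20 ± 0.19.

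Genes of NF-kB signalling and of G protein signalling rose in part. Of 15 NF-kB subunits and feedback genes 3 rose and 0 fell (2 and 0 with array weights), beside 6.75% and 2.87% over all genes. The list median was 0.57, or 0.25 after quantile normalization. Nfkbie, an inhibitor that NF-kB induces, stood at 4.98 and 6.15 against 7.14, 7.04 and 7.44. It rose by 1.64 ± 0.32 (adjusted p = 0.00485), and without naive replicate 1 by 1.06 with the call lost (adjusted p = 0.0536). Traf1, an adaptor of TNF receptors that NF-kB also induces, stood at 7.02 and 6.74 against 8.41, 8.32 and 8.27 and rose by 1.45 ± 0.22 (adjusted p = 8.57e-04). Among the 4 fits, the calls of Nfkbie and Traf1 were lost only after quantile normalization with array weights. Of 15 regulators of G protein signalling, which shorten signals of chemokine and other receptors, 3 rose and 0 fell in both weightings. The shares over all genes were 6.75% and 2.87% with equal weights. Rgs16 stood at 5.55 and 4.63 against 8.59, 8.40 and 8.28 and rose by 3.33 ± 0.47 (adjusted p = 6.02e-04, all 4 fits). Rgs18 rose by 1.49 ± 0.21 and Rgs1 by 1.16 ± 0.19, both called in all fits but quantile normalization with array weights. Of 19 immediate early genes, which respond within minutes to stimulation and to cell isolation, 2 were called, beside 9.62% over all genes. Egr1 rose by 1.54 ± 0.35 (adjusted p = 0.013, all fits but quantile normalization with array weights). The phosphatase gene Dusp2 fell by 1.68 ± 0.21 (adjusted p = 1.96e-04, all 4 fits). Egr1 stood at 6.26 and 7.42 against 8.38, 8.49 and 8.27, and without naive replicate 1 its change was 0.96 and not called. Dusp2 stood at 7.05 and 7.55 against 5.44, 5.75 and 5.69.

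Adgrg7, Trpv2, Ttc39c, Lockd and Mterf1b were also among the 12 largest rises. Adgrg7, an adhesion G protein-coupled receptor, stood at 4.31 and 4.47 in naive lung and at 7.24, 7.21 and 7.15 at week 2. Its groups were tight and far apart, and it rose by 2.81 ± 0.17 (adjusted p = 1.49e-07). Trpv2, a calcium-permeable channel, stood at 6.05 and 4.58 against 8.12, 7.75 and 7.73 and rose by 2.55 ± 0.36. Ttc39c, a tetratricopeptide repeat protein, rose by 2.60 ± 0.31 and the long noncoding RNA Lockd, transcribed downstream of Cdkn1b, by 2.42 ± 0.33. These 4 were called in all 4 fits. Mterf1b, a mitochondrial transcription termination factor gene, rose by 2.81 ± 0.52, a call lost after quantile normalization with array weights. Nrp1, which was not among those 12, encodes neuropilin-1, a receptor for semaphorins and VEGF. Nrp1 stood at 6.79 and 6.74 against 8.43, 8.51 and 8.44. It rose by 1.69 ± 0.19 (adjusted p = 1.09e-04, all 4 fits).

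Of 16 receptors and peptides of neural signalling, 2 rose and 1 fell, beside 9.62% called over all genes. With array weights 1 rose and 0 fell, beside 3.28%. Asic3, an acid-sensing ion channel, stood at 4.45 and 3.73 against 5.47, 5.44 and 5.54 and rose by 1.40 ± 0.24 (adjusted p = 0.00212, all 4 fits). Calcrl, the receptor subunit for the peptide CGRP, rose by 0.73 ± 0.17, and Calcb, one of the CGRP genes, fell by 0.92 ± 0.22. Both calls were lost with array weights. Nmur1, the neuromedin U receptor of ILC2s, stood at 8.04 and 8.45 against 8.25, 8.12 and 8.08. Its groups overlapped and it did not pass (-0.09 ± 0.24).

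Amino acid transport and use rose in 5 of 15 genes (3 with array weights), beside 6.75% of all genes (2.58% with array weights). In the list 0 were lower, and the median was 0.57, or 0.27 after quantile normalization. Slc7a5, the large neutral amino acid transporter LAT1, stood at 6.39 and 6.57 in naive lung and at 8.40, 8.32 and 8.43 at week 2. It rose by 1.90 ± 0.21 (adjusted p = 1.09e-04) and was called in all 4 fits. Slc7a1, an arginine transporter, rose by 1.22 ± 0.23, a call lost among the 4 fits only after quantile normalization with array weights. Arg1, the arginase that ILC2s express at rest, stood at 9.16 and 8.54 against 9.85, 9.79 and 9.68 and rose by 0.92 ± 0.20 (adjusted p = 0.0102). The call of Arg1 was lost after quantile normalization (adjusted p = 0.0577) and without naive replicate 2 (0.61). Tph1, which starts serotonin synthesis, and Asns, asparagine synthetase, rose by 1.08 ± 0.25 and 0.93 ± 0.20, and both calls were lost with array weights and without naive replicate 2.

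In other metabolic groups few members passed. All 17 genes of lipid uptake and oxidation were above 0, beside 10226 of all 22180 genes, with a median of 0.60. After quantile normalization the median was 0.41, and Plin2, named after its value was seen, was at -0.04. Only the fatty acid oxidation genes Acadvl (0.90 ± 0.19) and Cpt1a (0.70 ± 0.19) rose, beside 6.75% over all genes. With array weights 0 passed limma's test (7 of the 17 had an unadjusted p under 0.05 with equal weights). Of 20 unfolded protein response and secretion genes 0 passed limma's test and 6 had an unadjusted p under 0.05, at a median of 0.34, which was 0.05 after quantile normalization. Of 14 glycolysis genes Hif1a, the hypoxia-inducible factor that drives the pathway, rose by 0.88 ± 0.20, and its call was lost with array weights. The median of those 14 was 0.14, or -0.05 after quantile normalization. In the eicosanoid list of 17, 2 were called, beside 9.62% over all genes, and these 2, Alox5 and Alox5ap, parted. Alox5, the 5-lipoxygenase that starts leukotriene synthesis, stood at 9.70 and 9.06 against 7.83, 7.93 and 7.89 and fell by 1.50 ± 0.27 (adjusted p = 0.00348, all 4 fits). Alox5ap, the protein that presents arachidonic acid to it, stood at 6.67 and 5.98 against 7.18, 7.33 and 7.63 and rose by 1.05 ± 0.29 (adjusted p = 0.0315), though neither with array weights nor after quantile normalization.

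Calls among division genes depended on the weighting. Of 34 cell cycle genes 6 rose and 0 fell with equal weights, beside 6.75% and 2.87% over all genes. In the list 27 were above 0, beside 10226 of all 22180 genes, and the median was 0.35. With array weights limma called 0 (11 had an unadjusted p under 0.05 with equal weights). Top2a, the topoisomerase of dividing cells, rose by 1.10 ± 0.31 and the mitotic cyclin Ccnb2 by 1.06 ± 0.26. Mki67, the proliferation marker, stood at 5.47 and 4.87 in naive lung and at 5.90, 5.96 and 5.42 at week 2. The groups overlapped, and the gene did not pass (0.59 ± 0.24, adjusted p = 0.133). Of 21 interferon-stimulated genes Bst2, which encodes tetherin, rose by 1.17 ± 0.31, a call lost with array weights. The median of that list was -0.30, and 2 of the 21 were above 0, beside 10226 of all 22180 genes. In the list of 16 genes of STAT feedback and survival, Casp8, the initiator caspase, rose by 0.64 ± 0.20, a call lost with array weights.

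**Figure D3:**
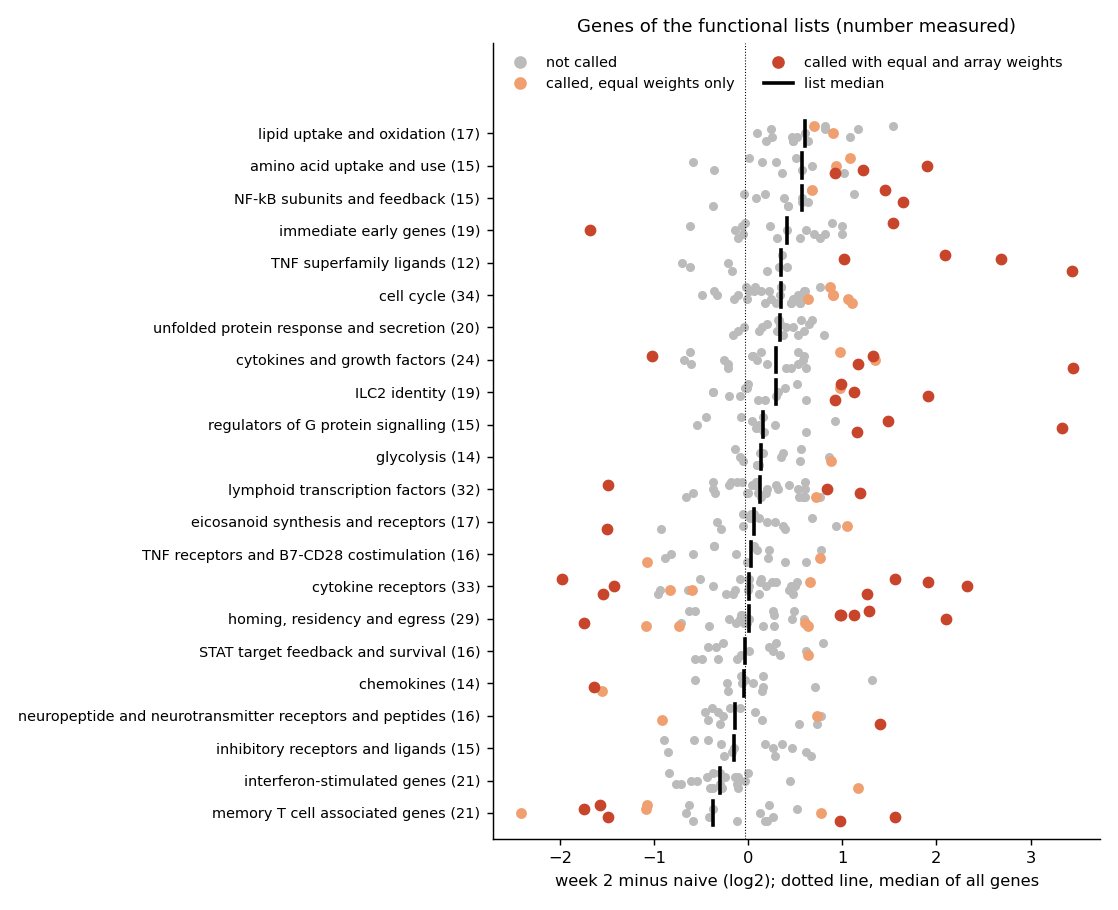
Week 2 minus naive difference (log2) of every measured gene in the functional lists, 1 point per gene, with the list median as a bar and the number measured in brackets; pale coloured points passed with equal weights only, dark ones with array weights too. The dotted line is the median of all genes, -0.04, and the medians run from -0.38 for memory T cell associated genes to 0.60 for lipid uptake and oxidation.

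MicroRNA genes held 3 of the 12 largest rises and 2 of the 12 largest falls. Of 483 measured, a family counted after its values were seen, 12 rose and 26 fell (6 and 9 with array weights), and the median was -0.22. Over all genes 6.75% rose and 2.87% fell (2.58% and 0.703% with array weights), and the median was -0.04. A microRNA represses messages that pair with its seed, bases 2 to 8, and the probe sets read RNA from the hairpin's locus, not the mature microRNA. The mature sequences, from RefSeq's GRCm38.p6, are shown with the seed in capitals, and that of miR-17 is given because it shares the seed of miR-20a and lies in the same cluster.
mmu-miR-20a-5p: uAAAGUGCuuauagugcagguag
mmu-miR-17-5p: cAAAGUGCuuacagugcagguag
mmu-miR-27a-3p: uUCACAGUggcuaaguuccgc
mmu-miR-5123: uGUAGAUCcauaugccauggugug
mmu-miR-215-5p: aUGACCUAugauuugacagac
mmu-miR-365-3p: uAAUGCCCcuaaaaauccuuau
Mir20a, at chr14:115044157-115044263, stood at 2.65 and 2.72 in naive lung and at 5.15, 5.01 and 5.72 at week 2. It rose by 2.61 ± 0.34 (adjusted p = 3.01e-04, all 4 fits). Its neighbours in the cluster, named after their values were seen like Mir23a below, did not pass: Mir17, 486 bases upstream, differed by -0.65, Mir18 by -0.07 and Mir19a by 0.55. Mir27a, at chr8:84208672-84208758, stood at 3.67 and 5.76 against 7.61, 7.09 and 7.51 and rose by 2.69 ± 0.61 (adjusted p = 0.0122), and Mir23a, 154 bases upstream of it, by 2.53 with a call lost under array weights. The naive arrays were far apart for both, and without naive replicate 1 Mir27a was 1.64 higher and not called. Mir5123 stood at 2.98 and 4.28 against 6.47, 6.50 and 6.71 and rose by 2.93 ± 0.49 (adjusted p = 0.00194, all 4 fits). Mir365-1 fell by 3.51 ± 0.77, but its naive arrays stood at 8.56 and 4.30, and without the first of them the change was -1.38 and not called. Mir215 fell by 2.65 ± 0.54, and without naive replicate 2 by 1.92 with the call lost.

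Genes of T and NK cells were among the largest falls, beside microRNA, olfactory and keratin-associated genes. Klrd1, which encodes CD94, a receptor of NK cells and some T cells, stood at 7.35 and 7.10 in naive lung and at 2.81, 2.88 and 3.97 at week 2. The groups were more than 3 log2 units apart, and the fall was 4.00 ± 0.38 (adjusted p = 2.46e-05). Cd3e, a chain of the CD3 complex of the T cell receptor, stood at 8.99 and 9.37 against 5.99, 6.03 and 6.20 and fell by 3.10 ± 0.27 (adjusted p = 1.17e-05). Cd8b1, a chain of the CD8 co-receptor, stood at 6.51 and 6.88 against 3.69, 4.07 and 3.89 and fell by 2.81 ± 0.20 (adjusted p = 1.29e-06). Cd7, found on T and NK cells and early lymphocytes, fell by 3.77 ± 0.54, Cd3d by 3.21 ± 0.49 and Cd24a, a surface protein of immature and B lymphocytes and epithelium, by 2.85 ± 0.43. All 6 were called in all 4 fits. Of 13 T cell markers, 6 fell and 0 rose (5 and 0 with array weights), beside 2.87% and 6.75% over all genes, with a median of -0.68. Cd3g, the remaining CD3 chain of the list, stood at 8.33 and 9.05 against 8.31, 8.34 and 7.99, with the groups overlapping, and did not pass (-0.48 ± 0.22). Averaged over the 13 markers, the level was 6.53 and 6.37 in naive lung, 5.12, 5.14 and 5.26 at week 2 and 5.17 to 5.31 on the lung arrays at day 4 and 4 months. In such bulk samples, fewer cells of a type and less RNA per cell cannot be told apart.

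Some NK and ILC1 cytotoxic markers fell too. Of 15, 3 fell and 0 rose in both weightings, beside 2.87% and 6.75% over all genes with equal weights. They were Klrd1, the granule protein gene Nkg7 (-1.73 ± 0.35, not called after quantile normalization with array weights) and Ccl5. Ccl5 averaged 9.97 in naive lung, 10.01 at day 4 and 8.33 at week 2, and Klrd1 averaged 7.22, 2.88 and 3.22. The mean of the 15 markers was 5.13 and 5.14 on the naive arrays against 4.38, 4.29 and 4.63 at week 2. It was 5.04 and 4.67 at 4 months, when the T cell mean was 5.18 and 5.26. Ncr1 (-0.08) and Klrb1c (-0.29), which define NK cells, did not pass and were named after their values were seen. Genes linked to memory and resting T cells moved in both directions. Of 21, 6 fell and 3 rose (3 and 2 with array weights), beside 2.87% and 6.75% over all genes, with a median of -0.38. Among them, Satb1, a chromatin organiser of thymocytes, fell by 1.58 ± 0.28 and Ly6c2 by 2.42 ± 0.61, the latter lost with array weights. Il18r1 rose by 1.56 ± 0.25, Cd44 by 0.97 ± 0.20 and Bcl6 by 0.77 ± 0.19, with Cd44 and Bcl6 named after their values were seen. The calls of Cd44 and Bcl6 were lost after quantile normalization, and that of Bcl6 with array weights too. The T cell signalling gene Themis fell by 2.02 ± 0.31. The part that other lymphocytes in the naive samples had in the falls of Lef1, S1pr1, Satb1, Il21r, Il23r, Ccl5 and Dusp2 was not tested.

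Markers of ILC2s were bright on all 5 arrays. The 19 ILC2 identity genes averaged 8.74 and 8.80 in naive lung against 9.16, 9.22 and 9.07 at week 2. Of them 5 rose and 0 fell (4 and 0 with array weights), beside 6.75% and 2.87% over all genes. The 5 were Il17rb, Ccr4, Cxcr6, Il5 and Arg1. Thy1 (-0.03 ± 0.25), Icos (0.39 ± 0.24) and Klrg1 (0.18 ± 0.24) did not pass. The genes Ptgdr2, Il1rl1, Tcf7 and Areg were not analysed here. Markers of lung epithelium and macrophages differed between replicates. Scgb1a1, the secretory protein of club cells, stood at 11.02, 10.17 and 6.31 on week 2 replicates 1, 2 and 3 against 4.52 and 5.06 in naive lung. Its rise of 4.38 ± 1.33 (adjusted p = 0.0474) was lost with array weights and in 4 of the 5 fits without 1 array, with values of 3.46 to 4.65 in those 4, and was kept without week 2 replicate 3. Chil3, which alveolar macrophages express, stood at 5.88, 5.52 and 10.61 against 7.23 and 4.04 and did not pass. The macrophage marker mean was highest on week 2 replicate 3 (5.45, against 4.26 and 4.09 on the others). Of 15 macrophage and monocyte, 10 B cell, 10 endothelial and 11 mast cell and basophil markers, 0 passed limma's test with equal weights, and 1, 1, 3 and 2 had an unadjusted p under 0.05. The epithelial, fibroblast, dendritic cell and neutrophil lists held calls too, each lost with array weights. The epithelial cadherin gene Cdh1 rose by 1.02 ± 0.30 and Ager, of alveolar epithelium, fell by 0.77 ± 0.20. Dcn, a fibroblast proteoglycan gene, rose by 1.43 ± 0.40 (adjusted p = 0.0355), after quantile normalization too. Of dendritic cell markers Ccr7 fell by 1.09 ± 0.24 and Cd209a by 0.78 ± 0.21, and of neutrophil markers Camp fell by 1.00 ± 0.24. Il6, Tnfsf8, Tnfsf18, Il17rb, Adgrg7 and Slc7a5 were above both naive arrays on all 3 week 2 arrays, replicate 3 included. For Il6, Tnfsf8, Tnfsf18 and Adgrg7 this was a condition of being named among the largest rises, so it is no support. The part of other cells in these rises was not tested.

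**Figure D4:**
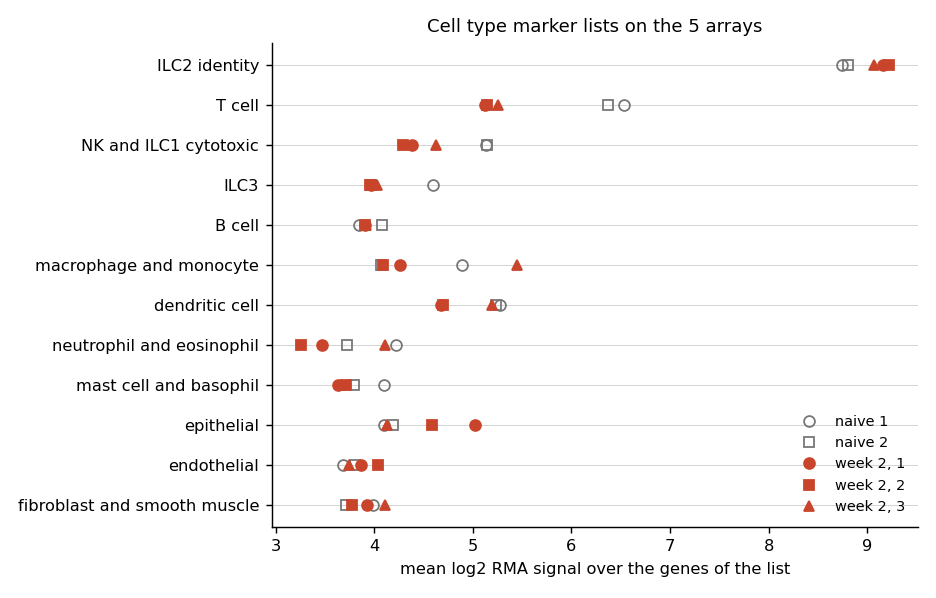
Mean log2 RMA signal over the genes of 12 marker lists on each of the 5 arrays (open symbols, naive lung; filled, week 2 lung; the symbol shape gives the replicate). T cell markers average 6.53 and 6.37 in naive lung against 5.12 to 5.26 at week 2, and the macrophage mean is highest, at 5.45, on week 2 replicate 3.

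Receptor genes of the olfactory system and a keratin-associated gene were also among the 12 largest falls. Olfr488, Olfr1510 and Vmn1r188, receptors of the olfactory and vomeronasal epithelium, and Krtap4-6, a hair keratin-associated protein, fell by 2.60 to 2.92. Vmn1r188 stood at 6.73 on 1 naive array and 2.41 on the other, against 1.63 to 1.78 at week 2. Olfr1510 was split likewise, at 5.56 and 2.47, and both calls were lost without naive replicate 1. Of 1390 olfactory and vomeronasal receptors measured, a family counted after its values were seen, 91 fell and 5 rose, with 20 and 0 after array weights. Over all genes 2.87% fell and 6.75% rose (0.703% and 2.58% with array weights). In the dimmest bin of all genes 125 of 2218 fell and 1 rose with equal weights. The median difference of the receptors was -0.28, close to the -0.27 of that bin.

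Week 2 levels could be placed between those of day 4 and 4 months in the lung. The comparisons of each time with naive share the naive arrays, so the times were compared with each other directly, over all genes. Against day 4, 401 genes (1.81%) passed with equal weights and 1409 (6.35%) with array weights, and between 4 months and week 2 the numbers were 3633 (16.4%) and 1196 (5.39%). Tnfsf8 averaged 4.69 ± 0.50 (SD, n = 2) in naive lung, 8.03 ± 0.30 (n = 3) at day 4, 8.12 ± 0.12 (n = 3) at week 2 and 5.52 ± 0.45 (n = 2) at 4 months. It did not differ detectably from day 4 to week 2 (0.10 ± 0.21, adjusted p = 0.935) and 4 months minus week 2 was -2.60 ± 0.24 (adjusted p = 1.69e-05). Il17rb averaged 9.66 at day 4, 9.62 at week 2 and 8.62 at 4 months, with a detectable difference for the later step only (4 months minus week 2, -0.99 ± 0.18, adjusted p = 0.00256). Slc7a5 averaged 7.83, 8.38 and 6.50 at the 3 times, and the step from week 2 to 4 months was -1.88 ± 0.21 (adjusted p = 1.68e-04). Il6 averaged 7.50 ± 0.42 (SD, n = 3) at day 4, 6.76 ± 0.30 (n = 3) at week 2 and 6.14 ± 1.11 (n = 2) at 4 months. Neither step of Il6 passed (adjusted p = 0.352 and 0.231), and neither did those of Tnfsf18 (adjusted p = 0.872 and 0.0901).

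A second set of genes had come down from day 4 by week 2. Il1r2 averaged 9.12 ± 0.24 (SD, n = 3) at day 4 and week 2 minus day 4 was -3.53 ± 0.32 (adjusted p = 1.46e-05). Mki67 was 8.05 at day 4, and week 2 minus day 4 was -2.29 ± 0.22 (adjusted p = 2.50e-05). Asic3 averaged 8.27 at day 4, and the difference was -2.79 ± 0.21 (adjusted p = 4.35e-06). Itgae (-1.83 ± 0.30), Irf4 (-1.70 ± 0.25), Ccl5 (-1.68 ± 0.20), Tnfsf4 (-1.53 ± 0.35), Adgrg7 (-1.11 ± 0.15) and S1pr1 (-0.82 ± 0.20) were also lower at week 2 than at day 4. The steps of Tnfsf4 and S1pr1 were not called after quantile normalization or without any 1 of the week 2 arrays. Itgae, Adgrg7 and Asic3 fell again from week 2 to 4 months (-2.76 ± 0.34, -1.80 ± 0.17 and -1.27 ± 0.24), whereas S1pr1 did not differ detectably (-0.07 ± 0.22, adjusted p = 0.848).

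Some genes were higher at week 2 than at day 4. Il2 averaged 6.65 in naive lung, 5.91 at day 4 and 7.99 at week 2, and week 2 minus day 4 was 2.07 ± 0.24 (adjusted p = 1.34e-04). At 4 months it stood at 8.13, no detectable difference from week 2 (0.15 ± 0.27). All 3 week 2 arrays were above all 3 day 4 arrays and both naive arrays. Tnf averaged 9.18 at day 4, and its difference of 1.62 ± 0.32 (adjusted p = 0.0122) was lost without week 2 replicate 1 or 2 (adjusted p = 0.0593 and 0.0692). Nmur1 was at 6.89 at day 4, below both naive and week 2, and week 2 minus day 4 was 1.26 ± 0.21 (adjusted p = 0.00306).

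**Figure D5:**
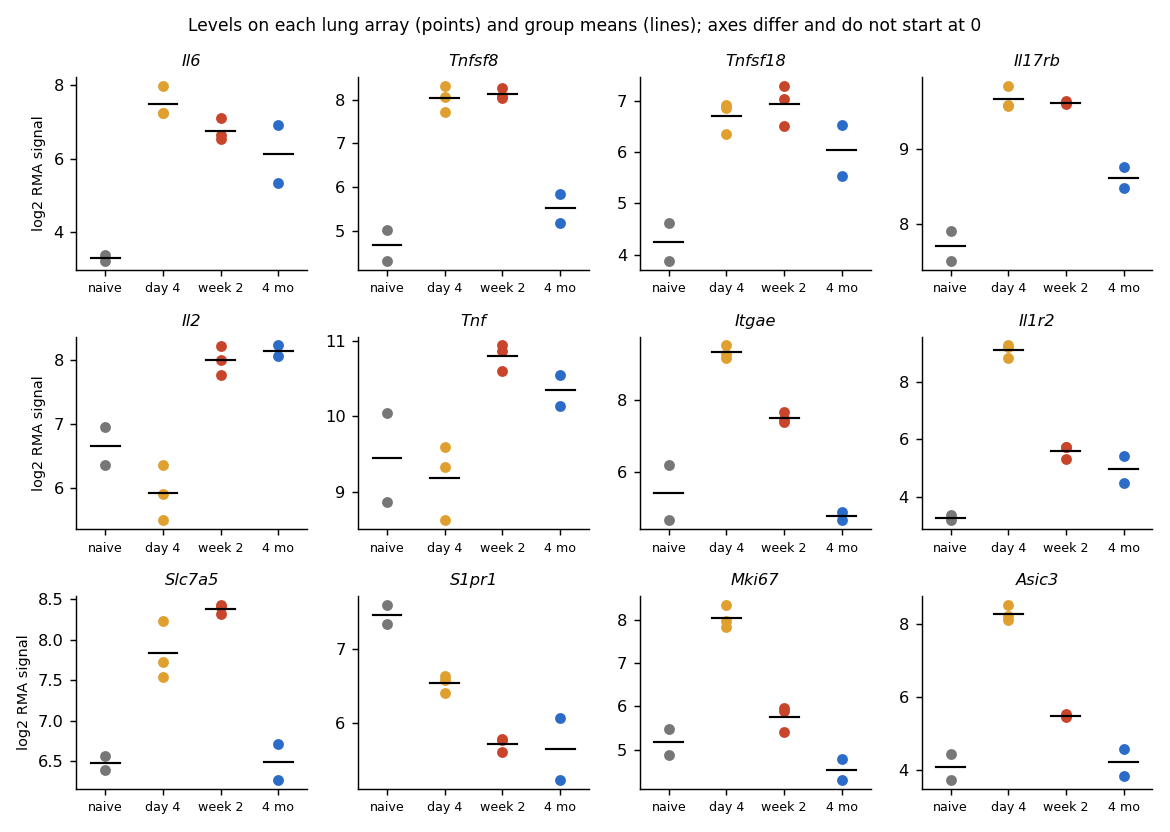
Log2 RMA signal of 12 genes on each lung array (points) with the group mean (line) in naive lung (n = 2) and after IL-33, with 3 arrays each at day 4 and week 2 and 2 at 4 months; axes differ between genes and do not start at 0. Il1r2 and Mki67 are lower at week 2 than at day 4, Tnfsf8 averages 8.03 at day 4 and 8.12 at week 2, and Il2 is higher at week 2 (7.99) than at day 4 (5.91).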

How the data were processed

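Total RNA of isolated mouse ILC2s was measured on 16 single-colour Affymetrix arrays. Per the submitters' processing notes, the authors used Affymetrix Expression Console and RMA, and the deposited unit is log2 signal for each probe set on each array. RMA corrects background, quantile normalizes and summarizes probes, so it hides any change in a cell's total RNA. Trizol extraction and biotin labelling with a Nugen Encore kit are named in the labels' protocols. The genome build and tool versions were not given in the sources used here. Scanner files were not used, and detection above background was not assessed. The number of arrays limits the precision.

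Of 41345 probe sets, 23521 had 1 gene symbol (1814 had several, 16010 none). For 1082 genes with several probe sets the one with the highest mean was used, which left 22180 genes. Group means were fitted to all 16 arrays with limma 3.58.1 in R 4.3.3 (lmFit and eBayes, equal weights, no block, 10 residual and 6.52 prior degrees of freedom), with Benjamini-Hochberg adjustment over all genes, an adjusted p threshold of 0.05 and two-sided tests. The procedure was tested on simulated data, where the fit with equal weights called unchanged genes more often than its threshold allows and the fit with array weights did not. Calls lost with array weights are marked in the text. Python 3.11.15 with matplotlib 3.10.9 drew the figures.

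The genes compared and the gene lists were chosen with earlier results of these data known. Genes named were the 12 largest rises and 12 largest falls called with equal and with array weights, without overlap of the groups and without predicted genes, for each list its most changed called members (up to 4), and ILC2 genes set by hand. Other members are given by range and count, and genes named otherwise are said to have been chosen after their values were seen. Which genes were compared between times was also chosen after values were seen. Alternatives were array weights, fits of 5 or 10 arrays, quantile normalization repeated, medians centred, a filter on dim genes (highest group mean under the 40th percentile, 3.73), trend and robust options, the mean of probe sets, a replicate-number block, a minimum log2 change of 1 and the omission of each array in turn. Quantile normalization with array weights was added after seeing the data.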

Additional observations from a re-analysis of the deposited data

Results flagged for a closer look

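The following results stood out because 2 time points differed from each other in a direct test with limma over all genes, and so differed in their change from the same naive arrays. For week 2 minus day 4 in the lung, the differences were 2.07 for Il2, 1.62 for Tnf and 1.26 for Nmur1, which were higher at week 2. They were -3.53 for Il1r2, -2.79 for Asic3, -2.29 for Mki67, -1.83 for Itgae, -1.70 for Irf4, -1.68 for Ccl5, -1.53 for Tnfsf4, -1.11 for Adgrg7 and -0.82 for S1pr1, which were lower. Each of these 12 passed with array weights too, and those of Tnfsf4 and S1pr1 did not pass after quantile normalization. For 4 months minus week 2 the differences were -2.76 for Itgae, -2.60 for Tnfsf8, -1.88 for Slc7a5, -1.85 for Il18r1, -1.80 for Adgrg7, -1.27 for Asic3 and -0.99 for Il17rb. These 7 passed with array weights and after quantile normalization. The 4-month arrays, with interquartile ranges of 2.35 and 2.64 log2 units, had as narrow a signal range as the naive arrays, and its part in these differences was not tested.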

How the results depend on the processing

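Of 2134 genes called, 1498 higher and 636 lower, the number was 728 (572, 156) with array weights, 525 (421, 104) with the 5 arrays alone, 1196 (882, 314) with the 10 lung arrays, 1077 (644, 433) after quantile normalization, 185 (119, 66) after quantile normalization with array weights, and 879 (613, 266) at a log2 change of at least 1. Leaving out each array in turn gave 1084 to 2274 called, 807 to 1476 higher and 277 to 910 lower. The week 2 arrays gave the lower numbers: 1084, 1122 and 1140 without replicates 1, 2 and 3. Without naive replicate 1 or 2, 1206 of 2274 and 1186 of 2174 calls were shared with the full fit, the lone naive array being assumed to vary like the other groups. With medians centred the split was 1808 higher and 447 lower (80.2% higher, against 70.2%), as in the fit of 5 arrays (80.2%), and it was 59.8% after quantile normalization and 60.0% without naive replicate 1.

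Of 86 named genes called, array weights kept 57, quantile normalization 65, both together 36, and leaving out 1 array 62 to 70. None of the 86 changed direction under any alternative. Genes without a call changed sign near 0. After quantile normalization, with and without array weights, Il4 was -0.12 and Id2 -0.14, and Klrg1 was -0.15 without and -0.16 with them. Quantile normalization put Il9 at 0.00, Il17rb (week 2 minus day 4) at 0.08 and S1pr1 (4 months minus week 2) at 0.36, and centring put Thy1 at 0.05. Without 1 array, Il4 ranged from -0.13 to 0.21, Id2 from -0.05 to 0.06, Klrg1 from -0.25 to 0.60, Bcl11b from -0.41 to 0.01, Thy1 from -0.10 to 0.04 and Nmur1 from -0.30 to 0.11.

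Replicates 1 and 2 of the groups share only a number: their deviations from the group means correlated at -0.003 and 0.048. With the replicate number as a block 1902 genes were called, 1341 higher and 561 lower, and 84 of the 86 named calls were kept (Icosl and Casp8 were lost, at adjusted p = 0.0521 and 0.0813). For dim genes, the signal over background was not assessed.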

Other observations

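Further families and genes outside the lists are given here. They were chosen after their values were seen, so the counts describe these arrays and carry no test of their own. The single genes named were called in all 4 fits unless said otherwise. Of 18 measured cytosolic aminoacyl-tRNA synthetases, which charge tRNAs for protein synthesis, 7 rose and 0 fell (6 and 0 with array weights), with a median of 0.68. Over all genes 6.75% rose and 2.87% fell (2.58% and 0.703% with array weights). Iars, which charges isoleucine, measured 5.66 and 5.98 in naive lung, against 7.62, 7.38 and 7.46 at week 2, a rise of 1.67 ± 0.20 (SE, limma adjusted p = 1.93e-04). Rars, which charges arginine, rose by 1.39 ± 0.17. The family stood beside the amino acid transporters Slc7a5 and Slc7a1, which rose as well.

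Alcam, an adhesion molecule that binds CD6 on T cells, stood at 5.38 and 5.88 against 8.11, 7.90 and 8.10 and rose by 2.41 ± 0.21 (adjusted p = 9.93e-06). Jag1, a Notch ligand, stood at 5.54 and 5.29 against 7.79, 7.59 and 7.52 and rose by 2.22 ± 0.26 (adjusted p = 1.30e-04), while the receptor gene Notch1 differed by 0.01 ± 0.21 and did not pass. Jag1 averaged 6.54 at day 4 and 4.63 at 4 months, so its mean in the lung was highest at week 2. Of 9 Notch ligands and receptors 1 rose and 1 fell, and of 8 SLAM family genes 1 rose and 1 fell, beside 9.62% called over all genes. Nt5e, the ectoenzyme CD73 that makes adenosine, rose by 1.52 ± 0.23, Insig1, a brake on sterol synthesis, by 1.89 ± 0.23 and Casp1, the inflammasome protease, by 1.96 ± 0.29. Among lower genes, Cd2, an adhesion molecule of T and NK cells, fell by 2.49 ± 0.42 and Slamf6, a receptor of T and NK cells, by 1.91 ± 0.21. Myb, a transcription factor of lymphoid progenitors, stood at 6.32 and 6.67 against 3.74, 4.55 and 4.00 and fell by 2.40 ± 0.35 (adjusted p = 7.83e-04). It averaged 6.13 at day 4. Of 8 Gimap genes, GTPases of lymphocyte survival, 3 fell and 0 rose, beside 2.87% and 6.75% over all genes. Gimap3 fell by 1.57 ± 0.24. The T cell marker mean was also lower at week 2 than in naive lung, as given above. At day 4 that mean stood at 5.31, 5.17 and 5.25. The part that other lymphocytes had in these falls was not tested.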
